A study of Mus musculus with 96 samples.

Results

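The miR-143 and miR-145 cluster was followed by its 4 annotated mature arms, mmu-miR-143-3p, mmu-miR-143-5p, mmu-miR-145a-5p and mmu-miR-145a-3p (the species prefix is left out from here on), in small RNA-seq of cells isolated from mouse hearts after myocardial infarction (MI). The arms were taken by name, as 4 of 1978 mature miRNAs listed per library, and 1561 of these were detected somewhere in the series. Endothelial cells (ECs), cardiomyocytes (CMs), fibroblasts (FBs) and hematopoietic cells (HCs) were each isolated on day 0 (D0), D1, D3, D7, D14 and D28, with 4 libraries per cell type and day and 96 in all. The mice were C57Bl/6J males of 12 to 14 weeks at surgery. MI was induced by permanent ligation of a coronary artery, and the D0 mice had no MI. Each library was a pool of RNA from 3 animals, with 2 where a sample was missing. From ECs at D28, HCs at D0 and FBs at D0 the study removed an outlier small RNA library each, without naming them in its text. All 4 libraries of these groups are used here. CMs were enriched by low-speed centrifugation, HCs were bound to anti-CD45 beads, ECs were then taken from the unbound cells with anti-CD144 beads, and FBs were the remaining cells that adhered to plastic. Pools of the 4 cell types on a day came from the same mice, but the labels do not say that equal replicate numbers mark the same mice, and fits over all libraries treated these libraries as independent. No step selected or removed mural cells, the pericytes and smooth muscle cells that wrap blood vessels.

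The 2 hairpins of the cluster are cut from one primary transcript. They are known as the most characteristic miRNAs of vascular smooth muscle, where serum response factor and myocardin switch them on and where they favour the contractile over the proliferative state. From each hairpin Drosha and Dicer release a duplex, of which usually one arm is loaded into Argonaute and the other is degraded. Pericytes carry the cluster too, whereas endothelial cells are usually described as low in it and as marked by miR-126.

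The endothelial reference miR-126a-3p and 4 of the miRNAs that followed the members most closely over cell types and days, described further on, are printed 5′ to 3′ because 2 of them share a seed. Among the mature sequences of RefSeq for GRCm38.p6, 0 of the 4 members matched, and 7 of the miRNAs they are compared with did. Bases 2 to 8, the seed that pairs with targets, are in capitals.
miR-126a-3p: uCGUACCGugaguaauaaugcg
miR-192-5p: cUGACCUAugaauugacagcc
miR-130a-3p: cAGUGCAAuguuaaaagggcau
miR-30e-5p: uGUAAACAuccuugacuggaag
miR-30a-5p: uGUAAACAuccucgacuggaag
miR-30e-5p and miR-30a-5p carry the same seed, GUAAACA, and lie on chromosome 4 (120772660 to 120772681, minus strand) and chromosome 1 (23272274 to 23272295, plus strand). miR-126a-3p lies on the plus strand of chromosome 2 at 26591402 to 26591423, miR-130a-3p on the minus strand of chromosome 2 at 84741116 to 84741137 and miR-192-5p on the plus strand of chromosome 19 at 6264857 to 6264877.

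In the GRCm38 build (mm10), Mir143 lies on the minus strand of chromosome 18 at 61649196 to 61649258 and Mir145a at 61647825 to 61647894, 1301 bases apart. Neither overlaps another gene in the GENCODE annotation, and both lie within the long non-coding RNA gene Carmn as RefSeq draws it (61645878 to 61665538).

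Totals of mature miRNA counts ran from 525651 to 29037628 in ECs, 3327351 to 24279105 in CMs, 2217588 to 65588543 in FBs and 18286 to 29504666 in HCs, where HC D0 replicate 3 was the lowest. Input and amplification differed by cell type (500 ng and 14 PCR cycles for CMs, 50 ng and 16 for ECs, 150 ng and 15 for FBs and HCs), so cell type, input and cycles cannot be told apart. The cardiomyocyte, endothelial, fibroblast and hematopoietic marker lists each had their highest sums in the cell type they mark, but other cell types held them too. miR-126a-3p ranked 1 in ECs, and its level in CMs, FBs and HCs was 8.14%, 14.0% and 18.1% of that in ECs over all days. At D0, however, miR-126a-3p in HCs was at 36.6% of its level in ECs, and the hematopoietic list in ECs at 29.7% of its level in HCs. The cardiomyocyte list in HCs at D0 was at 16.6% of its level in CMs. In these HC libraries it averaged 109682 CPM and the endothelial list 72290 CPM, against 8025 CPM for the hematopoietic list. All changes in HCs after MI are measured against this D0 group. EC libraries held the cardiomyocyte, fibroblast and hematopoietic marker miRNAs at 14.3%, 8.13% and 17.6% of the level in the cell type they mark. No list of mural marker miRNAs apart from the cluster itself was available, and the label mural was not checked. The study also made total RNA-seq of these cell types, which was not examined here for mural genes.

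Levels are given first as counts per 1000000 mature miRNA counts of a library (CPM). In such bulk libraries fewer cells of a type and less RNA per cell cannot be told apart. miR-143-3p, the arm from which most reads of the cluster came, made up 4.53% of mature counts in ECs on average, 2.35% in FBs, 1.85% in CMs and 1.18% in HCs. Over the 24 libraries of a cell type its CPM ran from 22094 through a median of 40919 to 100885 in ECs. The range was 17343 to 35084 in FBs (median 23661), 12553 to 36076 in CMs (median 15263) and 4369 to 31220 in HCs (median 8968). By mean CPM it ranked 5 in ECs, 8 in CMs, 17 in FBs and 20 in HCs. By group means, 5 of the 6 EC groups stood above all 18 groups of other cell types. The mean of ECs at D28 (46809 CPM) did too, but it rested on EC D28 replicate 2 at 100885 CPM, and without that library it was 28783 CPM, below FBs at D7 and CMs at D0. Means ran from 54710 CPM in ECs at D0 down to 5566 CPM in HCs at D3, a ratio of 9.83. Neighbours in that order did not separate, since the libraries overlapped in 23 of 23 neighbouring pairs.

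miR-145a-5p, the abundant arm of the other hairpin, had a mean of 2696 CPM in ECs, 1375 in CMs, 986 in FBs and 571 in HCs, and ranks of 49, 45, 60 and 99. Its highest group was again ECs at D0 (4071 ± 657 CPM, SD, n = 4) and its lowest HCs at D3 (296 ± 73.7). The 5 highest groups were ECs, and ECs at D28 stood far below them at 722 ± 413 CPM, with overlap in 22 of 23 neighbouring pairs. The minor arms were rarer. miR-145a-3p had means of 393 CPM in ECs, 369 in CMs, 297 in FBs and 141 in HCs, and miR-143-5p had means of 130, 117, 53.4 and 47.0 CPM.

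**Figure D1:**
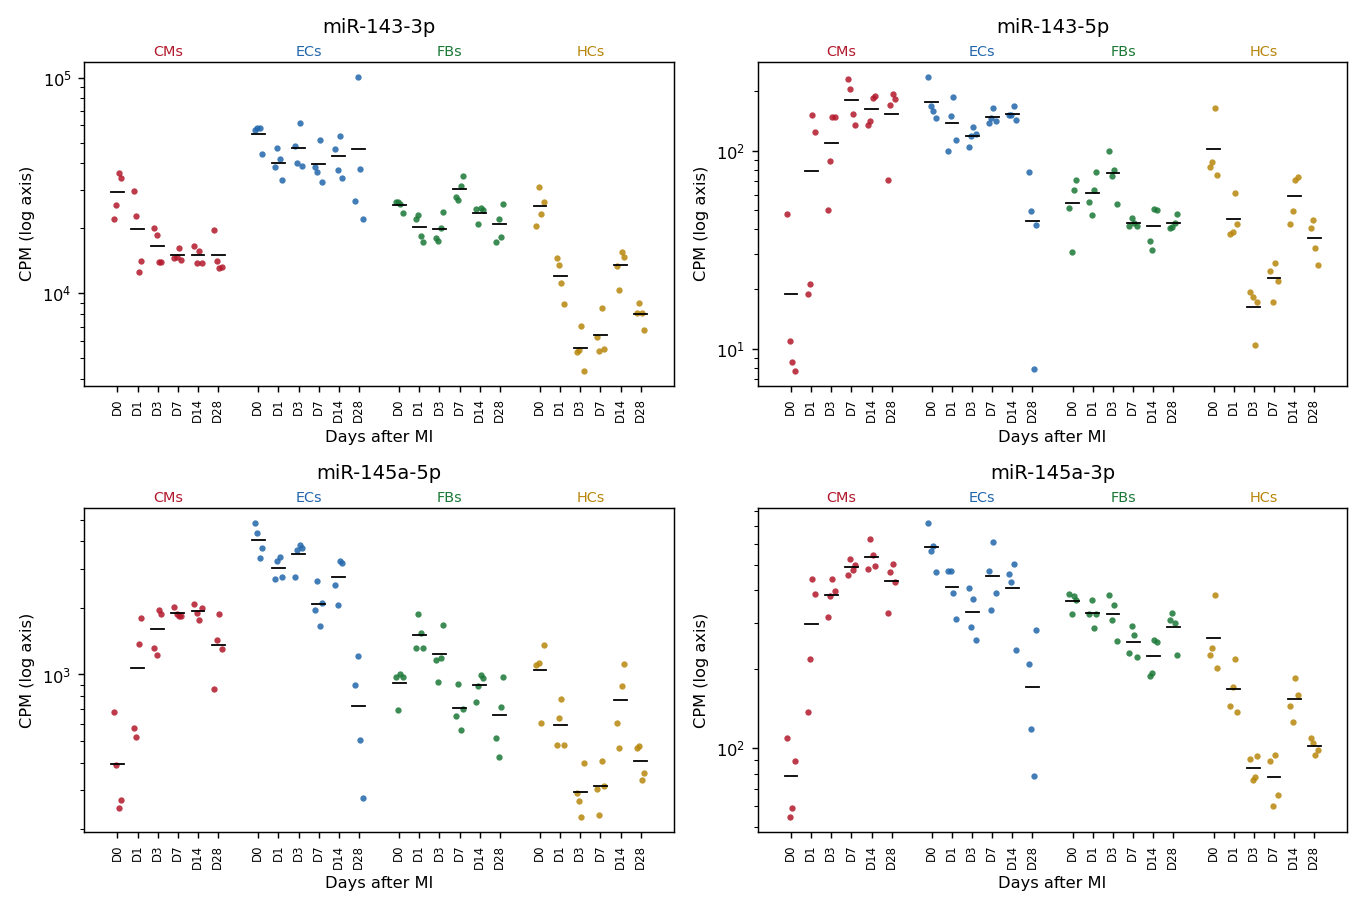
CPM of each arm (log axis) in the 96 libraries, by cell type and day after MI, with 1 point per library and a bar at the mean of the 4 libraries of a group. EC D28 replicate 2 is the highest point of miR-143-3p at 100885 CPM, EC points range down to 22094 CPM and overlap with those of the other cell types, and the EC points of the other 3 arms drop at D28.

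Levels in ECs, averaged over the 6 days, were compared with those in the other cell types by the quasi-likelihood test of edgeR. It was run on all 96 libraries and 712 miRNAs. This test used TMM factors, which scale libraries on the assumption that most miRNAs do not differ. Against FBs, miR-143-3p was higher in ECs by 1.13 on the log2 scale (SE 0.130, edgeR adjusted p = 6.1e-13) and miR-145a-5p by 1.47 (SE 0.122, adjusted p = 1.4e-19). All 4 arms were higher in ECs than in FBs and none was lower, beside 31.9% of all miRNAs higher and 39.9% lower. Against HCs the differences of miR-143-3p and miR-145a-5p were 2.93 and 2.96 (edgeR adjusted p = 5.8e-35 and 2.1e-37), with all 4 arms higher beside 37.6% of miRNAs higher and 40% lower.

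Day by day, the log2 difference of ECs minus FBs in miR-143-3p ran 1.37, 1.14, 1.54, 0.47, 0.87 and 1.41 from D0 to D28. Of these the value of D7 did not pass (edgeR adjusted p = 0.20) and the other 5 did. The D28 value rested on EC D28 replicate 2, without which it was 0.44 (edgeR adjusted p = 0.22), and the D14 value did not pass with DESeq2 (0.69, adjusted p = 0.051) or when replicate 3 was left out of every group (0.45). For miR-145a-5p it was 2.42, 1.14, 1.78, 1.63 and 1.59 up to D14, all past the threshold, and 0.27 on D28 (edgeR adjusted p = 0.46). On D28 miR-145a-3p was lower in ECs than in FBs (log2 difference -0.60, edgeR adjusted p = 0.045), beside 26.7% of miRNAs lower, a call lost without EC D28 replicate 2 (-0.52, adjusted p = 0.13), when replicate 1 (-0.42) or 2 (-0.45) was left out of every group, and without EC D28 replicate 3, FB D0 replicate 2 and HC D0 replicate 3 together (-0.34). The minor arms were also not higher in ECs on every day. miR-145a-3p did not pass at D1 (0.49, edgeR adjusted p = 0.11) or D3 (0.36, adjusted p = 0.25), and miR-143-5p did not at D28 (0.16, adjusted p = 0.75). The backgrounds of miRNAs higher in ECs were 27.9%, 18.8%, 22.3%, 29.9%, 27% and 24.6% on the 6 days.

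Between ECs and CMs the order depended on the scale. In plain CPM, CMs held 40.8% of the EC level of miR-143-3p and 51.0% of that of miR-145a-5p. With TMM factors, the log2 difference of ECs minus CMs was -0.16 for miR-143-3p (edgeR adjusted p = 0.29, and -0.32 and past the threshold without EC D28 replicate 2) and -0.49 for miR-145a-5p (adjusted p = 0.00018). With library size alone these became 1.33 and 0.96, both past the threshold, so no order of ECs and CMs is given. miR-143-5p and miR-145a-3p, at -1.08 and -1.20 with TMM factors, also turned sign, to 0.33 and 0.22. With TMM factors 3 of 4 arms were lower in ECs and 0 higher, beside 32.2% and 37.2% of miRNAs.

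Beside these levels in ECs stand the measurements that could move with them. Relative to miR-126a-3p in the same library, miR-143-3p was at a median ratio of 0.202 in ECs, against 0.906 in CMs, 0.874 in FBs and 0.337 in HCs. The ratio of miR-145a-5p to miR-126a-3p was 0.0139 in ECs, 0.0847 in CMs, 0.0364 in FBs and 0.0156 in HCs. miR-143-3p had its highest mean in ECs in CPM and its lowest median ratio to the endothelial marker there. However, miR-126a-3p itself averaged 192936 CPM in ECs, against 15708 in CMs, 26927 in FBs and 34877 in HCs. Any miRNA less enriched in ECs than this marker has a lower ratio there, so the ratios do not test a source. FBs held 51.8% of the EC level of miR-143-3p in CPM, CMs 40.8% and HCs 26.1%. The 4 cardiomyocyte markers summed to 20924 to 162111 CPM in EC libraries against 311247 to 709040 CPM in CMs. The 3 fibroblast markers summed to 2016 to 11141 CPM against 40646 to 88869 CPM in FBs, and the 4 hematopoietic markers to 982 to 4616 CPM against 6819 to 25731 CPM in HCs. Of these 11 markers only miR-142a-5p was at 0 in any EC library. Over the 24 EC libraries, with day means removed, miR-143-3p had r = 0.65 with the summed cardiomyocyte markers (Spearman rho 0.53, permutation p = 0.017 and 0.023, adjusted p = 0.19 and 0.25 over 11 relations, r = 0.54 without the 2 libraries farthest from the median of the markers). For miR-145a-5p the same relation had r = 0.08 (rho -0.02), and that of miR-143-3p was r = 0.49 with library size alone. miR-145a-5p had r = 0.64 with the hematopoietic markers (rho 0.18), which was 0.08 without 2 libraries. None of the 11 relations passed the adjusted threshold. With miR-126a-3p, r was -0.29 (rho -0.06) for miR-143-3p and -0.06 (rho 0.08) for miR-145a-5p. miR-143-3p and miR-145a-5p had r = 0.59 with each other (rho 0.27, permutation p = 0.18 and 0.34, adjusted p = 0.67 and 0.94), which fell to 0.06 without EC D28 replicates 2 and 4. Mural cells bound with ECs, other cells in the EC fraction and expression in the ECs themselves were not tested as sources.

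**Figure D2:**
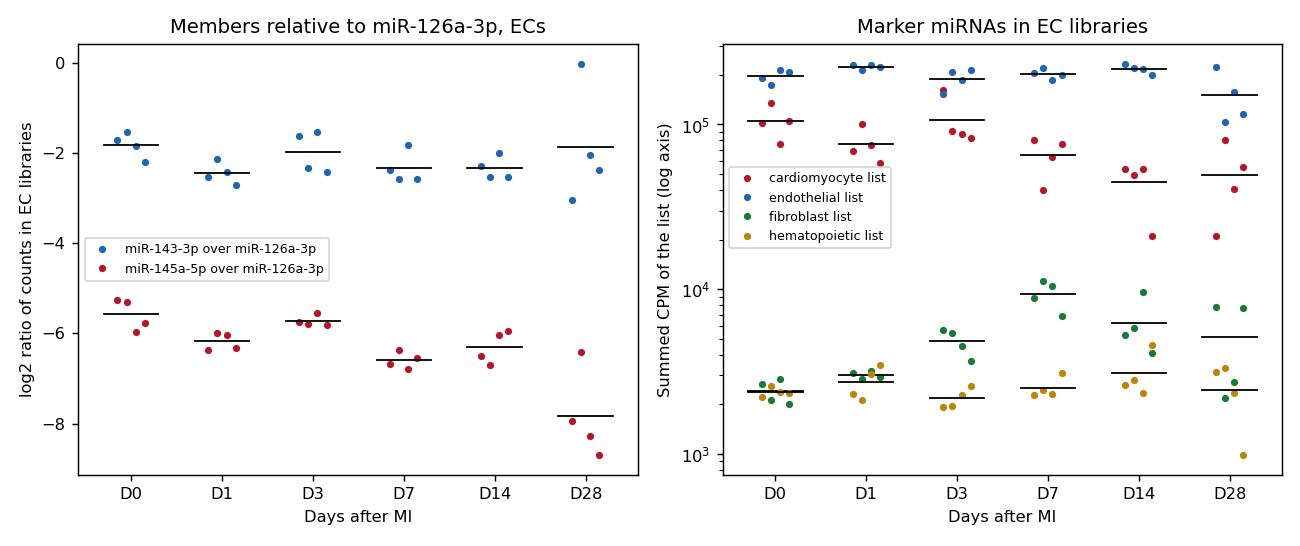
Left, log2 ratio of miR-143-3p and of miR-145a-5p to miR-126a-3p in each EC library; right, summed CPM (log axis) of the cardiomyocyte, endothelial, fibroblast and hematopoietic marker lists in the same libraries, by day after MI, with bars at the means of 4 libraries. The ratio of miR-145a-5p drops at D28 to a mean of -7.83 from -5.58 at D0, and the cardiomyocyte list falls from a mean of 104535 to 49234 CPM.

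Changes after MI were tested against D0 within each cell type, again with edgeR and TMM factors. In ECs, miR-145a-5p was at 4841, 4346, 3348 and 3748 CPM in the 4 libraries of D0 and at 1953, 2648, 1660 and 2104 CPM in those of D7. The D7 libraries all lay below the D0 libraries (log2 fold change -1.32, SE 0.286, edgeR adjusted p = 0.00071). At D28 it was at 898, 1208, 506 and 277 CPM, again without overlap with D0. This change, of -2.45 (SE 0.298, edgeR adjusted p = 2.6e-07), was the deepest of the 20 measured for the arms in ECs. On the remaining days, D1, D3 and D14, the differences were -0.43, -0.23 and -0.77 (edgeR adjusted p = 0.99, 0.66 and 0.068).

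The minor arms of both hairpins fell in ECs at D28 as well. miR-145a-3p was at 209, 118, 78.6 and 281 CPM, below the 470 to 720 CPM of D0 (log2 fold change -1.62, SE 0.361, edgeR adjusted p = 0.00063). miR-143-5p was at 78.0, 49.7, 7.86 and 42.0 CPM, below the 146 to 236 CPM of D0 (log2 fold change -1.90, SE 0.335, adjusted p = 5.8e-05). The 7.86 CPM rests on 5 counts in EC D28 replicate 3. So 3 of 4 arms were called lower in ECs at D28, beside 20.2% of the 421 miRNAs tested. At D7, 1 of 4 arms was lower beside 4.75%, and 0 arms were higher beside 17.8%. At D1 0 of 4 passed in edgeR, with 0 at an unadjusted p under 0.05 and 0 in DESeq2, beside 0% of all miRNAs. At D3 and D14 0 of 4 passed in edgeR, beside 2.14% and 3.09% lower and 15.4% and 11.4% higher, with 1 at an unadjusted p under 0.05 on each day and 2 and 1 called by DESeq2. Between D0 and D28 the summed markers in ECs moved as well, the cardiomyocyte list to 0.471, the endothelial list to 0.759, the fibroblast list to 2.13 and the erythroid list to 2.00 times D0, while the hematopoietic list had means of 2385 and 2440 CPM, and their part in these falls was not tested.

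miR-143-3p is cut from the same transcript. It was at 57172, 58567, 58648 and 44451 CPM in ECs at D0 and at 26719, 100885, 37538 and 22094 CPM at D28. Of the D28 libraries 3 lay below all of D0 and 1, EC D28 replicate 2, above all of D0. The log2 difference was -0.12 (SE 0.337, edgeR adjusted p = 0.80), and without EC D28 replicate 2 it was -1.02 with an adjusted p of 0.00068. In that library miR-126a-3p was at 102313 CPM, against 114875 to 220312 CPM in the other D28 libraries. Its summed erythroid markers, at 4246 CPM, exceeded the 1888 to 2429 CPM of those libraries, and its cardiomyocyte markers, at 80702 CPM, exceeded their 21003 to 54847 CPM. The part of these values in the level of miR-143-3p was not tested. At the other days the difference from D0 lay between -0.82 at D7 (adjusted p = 0.086) and -0.23 at D3, and none passed.

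The difference between cell types was tested itself in the fit of all libraries, with the change in ECs set against the average change of CMs, FBs and HCs. At D28 it was -1.95 for miR-145a-5p (edgeR adjusted p = 3.1e-06), -1.55 for miR-145a-3p (adjusted p = 1.7e-05) and -1.98 for miR-143-5p (adjusted p = 9.0e-05), beside 22.5% of miRNAs lower by this contrast. For miR-143-3p it was 1.29 (adjusted p = 0.0029), in the other direction, and it was 0.33 (adjusted p = 0.49) without EC D28 replicate 2 and 0.27 (adjusted p = 0.69) when replicate 2 was left out of every group, beside 17.4% of miRNAs higher. Scaled by library size alone, these 4 values were -2.46, -2.07, -2.49 and 0.75, in the same directions and past the threshold. At D3 miR-143-3p passed as well, at 1.45 (adjusted p = 0.0034), beside 6.74% of miRNAs higher and 9.41% lower. This D3 contrast is given with TMM factors only, without values under alternatives. In ECs its own change at D3 was -0.23 (edgeR adjusted p = 0.72). In CMs, FBs and HCs it was -2.72, -0.69 and -2.62 in the fits within cell types, and the size of the fall in CMs depended on the scaling, as given below. No arm passed the contrast between cell types at D1, D7 or D14, and the share of all miRNAs passing on those days is not given here. miR-143-3p came nearest, at 0.88 on D7 and 0.87 on D14 (edgeR adjusted p = 0.082 and 0.090).

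**Figure D3:**
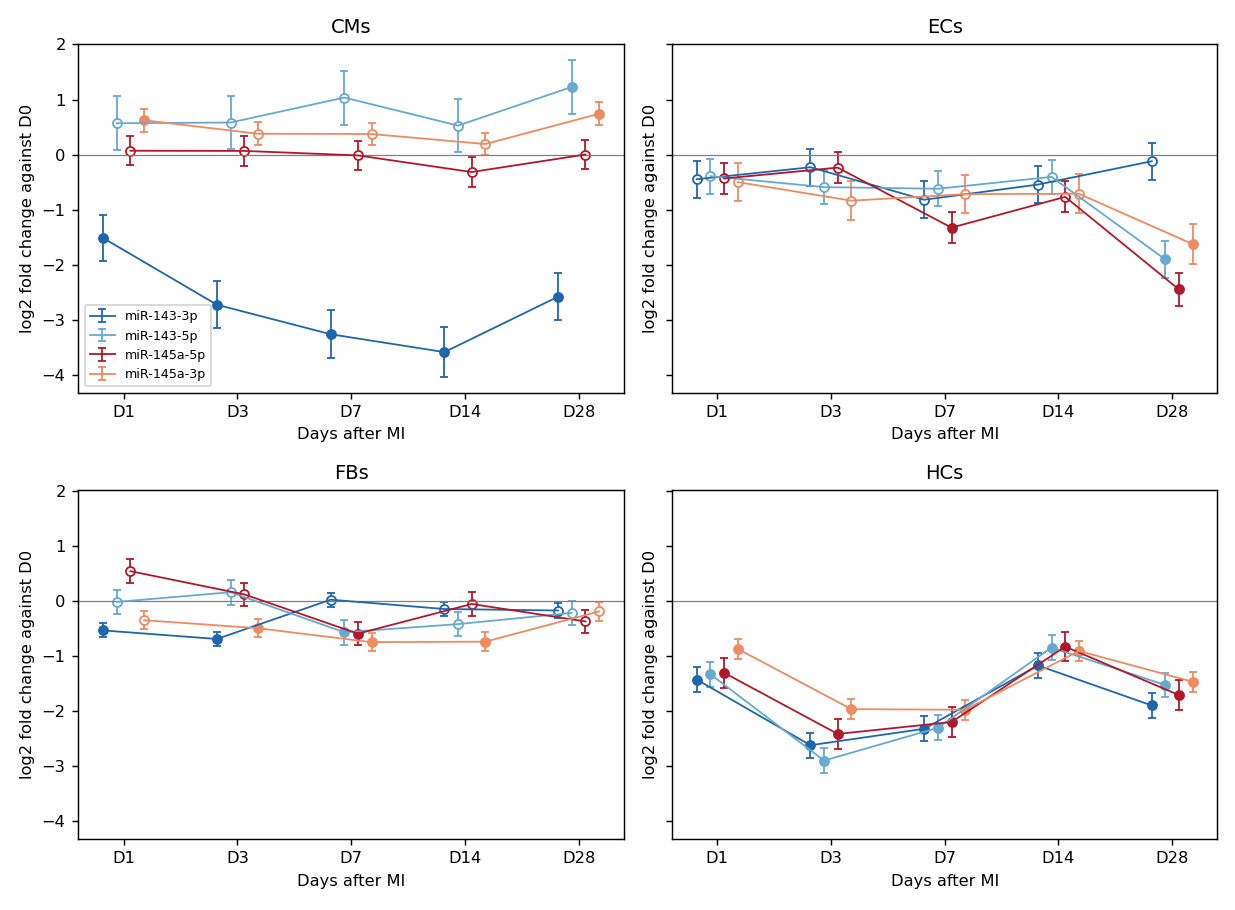
log2 fold change of the 4 arms against D0 by edgeR with TMM factors in each cell type, by day after MI, with bars of 1 SE and filled points where the adjusted p is under 0.05. Of the 20 changes in each cell type, 20 passed in HCs, 8 in CMs, 7 in FBs and 4 in ECs. The arms are cut from the same transcript and all days are set against the same D0 libraries, so these are not separate results. The share of all miRNAs called differed by cell type and day and is given in the text, so the counts do not rank the cell types.

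In HCs all 4 arms fell at all 5 days. miR-143-3p went from 20593, 31220, 23297 and 26584 CPM at D0 to 5324, 5481, 7090 and 4369 CPM at D3, with no overlap (log2 fold change -2.62, SE 0.229, edgeR adjusted p = 5.4e-10). miR-145a-5p went from 1101, 1129, 602 and 1361 CPM to 290, 267, 227 and 399 CPM (log2 fold change -2.41, SE 0.278, adjusted p = 4.9e-08). The minor arms miR-143-5p and miR-145a-3p changed by -2.90 and -1.96 at D3. The 4 of 4 arms lower stand beside 28.9%, 28.1%, 19.6%, 12.8% and 11.3% of the 608 miRNAs lower, from D1 to D28. At D14 the log2 fold changes of the arms lay between -1.17 and -0.83, and at D28 between -1.90 and -1.47. At D14 the call of miR-145a-5p (-0.83, edgeR adjusted p = 0.021) was lost without any 1 of HC D0 replicates 2 and 4 and HC D14 replicates 1 and 2. At D14 miR-145a-5p and miR-143-5p did not pass with library size alone, at -0.53 and -0.51.

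Other markers moved in HCs over the same days. The endothelial list fell from 72290 ± 19229 CPM (SD, n = 4) at D0 to 18747 ± 2886 at D3, 0.259 of its D0 level, where miR-143-3p was at 0.219 and miR-145a-5p at 0.282 of theirs. The cardiomyocyte list was at 0.447 of D0 at D3, the erythroid list at 0.308 and the fibroblast list at 0.671, while the hematopoietic list rose to 2.58 times its D0 level. At D28, when miR-143-3p was at 0.314 of D0, the endothelial list was at 0.306, the cardiomyocyte list at 0.312, the erythroid list at 0.294, the hematopoietic list at 1.23 and the fibroblast list at 3.59. Their part in the falls was not tested. HC D0 replicate 3, with 11 counts of miR-145a-5p, 7 of miR-145a-3p and 3 of miR-143-5p, rests on few reads, and every fall in HCs also passed without it.

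In FBs the log2 differences of the arms from D0 lay between -0.75 and 0.54. miR-143-3p went from 26515, 26453, 25881 and 23597 CPM at D0 to 21989, 23153, 18467 and 17343 CPM at D1, all below D0 (log2 fold change -0.54, SE 0.128, edgeR adjusted p = 0.0071). At D3 it was lower too (-0.69, adjusted p = 9.0e-05), and at D7 to D28 it did not pass. miR-145a-3p fell at D3 (-0.50), D7 (-0.75) and D14 (-0.74). At D7 miR-145a-5p (-0.59, adjusted p = 0.025) and miR-143-5p (-0.57, adjusted p = 0.041) were lower. The call of miR-145a-5p was lost without any 1 of FB D0 replicate 3 and FB D7 replicates 1, 3 and 4, and that of miR-143-5p without any 1 of FB D0 replicates 3 and 4 and FB D7 replicates 1, 3 and 4 and with the replicate block (edgeR adjusted p = 0.056). The call of miR-145a-3p at D3 was lost without any 1 of FB D0 replicate 3 and FB D3 replicates 2 and 4. The counts of arms lower were 1, 2, 3, 1 and 0 of 4 from D1 to D28, beside 2.13%, 20.1%, 21.1%, 10.3% and 1.95% of the 563 miRNAs tested, and 0 arms were higher beside 5.86%, 22.9%, 24.5%, 14.4% and 4.8%. At D28 0 arms had an unadjusted p under 0.05 in edgeR and 0 passed in DESeq2. miR-145a-5p at D1 lay above D0 in every library, at 1312 to 1877 against 694 to 1006 CPM, with a log2 difference of 0.54 (edgeR adjusted p = 0.11), which passed with library size alone (0.73, adjusted p = 0.032).

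In FBs 4 of these 7 calls were lost with library size alone, those of miR-143-3p at D1, miR-145a-3p at D3, and miR-145a-5p and miR-143-5p at D7. At D7 the cardiomyocyte markers were at 1558 CPM in FBs and the endothelial markers at 26328 CPM, 0.482 and 0.966 of their D0 levels.

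In CMs the values depended on the scaling more than in the other cell types. TMM factors were 0.289 to 0.357 at D0 and 0.491 to 2.04 later. miR-1a-3p and the other cardiomyocyte markers took 659155 CPM of the D0 libraries and 374193 to 576310 CPM of the later ones. With library size alone the median log2 fold change of all 484 miRNAs against D0 was 1.42 to 2.99, and with TMM factors it was 0.20 to 0.44. Changes in CMs are therefore read relative to that median.

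miR-143-3p was at 22007, 25698, 36076 and 34386 CPM in CMs at D0 and at 16540, 13856, 15723 and 13848 CPM at D14, with no overlap. With TMM factors its log2 fold changes from D1 to D28 were -1.51, -2.72, -3.26, -3.58 and -2.58 (edgeR adjusted p = 0.012 at D1 and at most 6.7e-05 later). With library size alone they lay between -0.98 and -0.58, and each of these passed too. miR-143-3p was thus lower on either scale. It was the only arm called lower, 1 of 4 on each day beside 11.4%, 23.3%, 30.2%, 29.1% and 24.8% of miRNAs lower. At D1 the fall did not pass without CM D0 replicate 3 or CM D1 replicate 3.

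The other 3 arms were higher after D0 in CPM, and past the threshold on every day with library size alone. On that scale the median of all miRNAs rose as well, by 1.42 to 2.99. The share of miRNAs called with library size alone was not counted, so these calls are not read as particular to the arms. miR-145a-5p went from 676, 389, 249 and 270 CPM at D0 to 2080, 1898, 1759 and 1995 CPM at D14, a mean 4.88 times that of D0. With library size alone this was a log2 fold change of 2.29 (edgeR adjusted p = 4.4e-06), beside a median of 2.99 over all miRNAs. With TMM factors it was -0.31 (adjusted p = 0.30), and the values of the other 4 days lay between -0.01 and 0.07. miR-145a-3p was higher with TMM factors at D1 (0.63, edgeR adjusted p = 0.031, lost without CM D1 replicate 3) and D28 (0.74, adjusted p = 0.0044). miR-143-5p was higher at D28 (1.23, adjusted p = 0.037), a call lost without any 1 of CM D0 replicates 2 to 4 and CM D28 replicates 2 to 4, and at 2.15 without CM D0 replicate 1. These are 1 of 4 arms higher at D1 beside 13.6% of miRNAs and 2 of 4 at D28 beside 29.5%, with 0 of 4 on the days between, beside 31.8%, 38.8% and 38%. Over the same days the endothelial markers went from 6915 CPM at D0 to 23985 at D14, and the fibroblast markers from 56.6 (37.6 without CM D0 replicate 1) to 1893 CPM. Their part in these values was not tested.

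**Figure D4:**
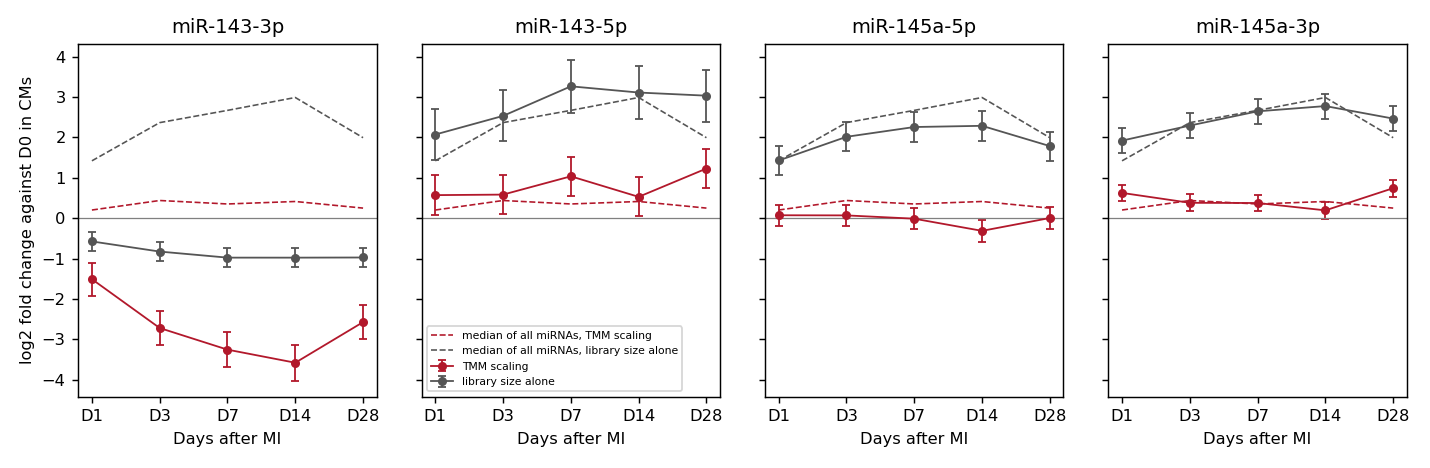
log2 fold change of the 4 arms in CMs against D0 by edgeR, with TMM factors (red) and with library size alone (grey), bars of 1 SE, and dashed lines for the median of all 484 miRNAs on the same scale. miR-143-3p lies below 0 on both scales, and miR-145a-5p lies between -0.31 and 0.07 with TMM factors and between 1.43 and 2.29 with library size alone.

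A ratio of counts within a library does not depend on scaling. The ratio of miR-143-3p to miR-145a-5p had medians of 15.9 in ECs, 25.5 in FBs, 20.0 in HCs and 9.06 in CMs, and none of 6 pairs of cell types passed (permutation test, smallest adjusted p = 0.15 for CMs and FBs). This test pooled all days, so changes between days entered its spread, and it cannot show that cell types were alike on a day. At D0 the log2 ratio was 3.56 to 4.13 in ECs, below the 4.60 to 5.25 of FBs, 5.03 to 7.18 of CMs and 4.23 to 5.21 of HCs. At D14 that of CMs, at 2.79 to 3.16, lay below the 3.42 to 4.21 of ECs. In ECs the ratio itself was 13.7 ± 2.68 (SD, n = 4) at D0, between 13.3 and 20.0 on average from D1 to D14, and 66.8 ± 25.0 at D28, where all 4 libraries lay above D0. The log2 difference at D28 was 2.20 (exact two-sided permutation test, p = 0.0286, the smallest that 4 against 4 libraries can give, adjusted p = 0.082 over 20 comparisons). In CMs the ratio went the other way, from 92.7 ± 52.4 at D0 to 7.78 ± 0.877 at D14, a log2 difference of -3.36 (exact p = 0.0286, adjusted p = 0.082), and the D3, D7, D14 and D28 libraries all lay below D0. In FBs it was below D0 in every library at D1 and D3. In HCs the groups overlapped with D0 on every day, with log2 differences from -0.43 to -0.27.

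Relative to miR-126a-3p in ECs, miR-145a-5p had log2 differences from D0 of -2.25 at D28, -1.01 at D7 and -0.60 at D1, all without overlap with D0 (exact two-sided permutation test, p = 0.0286, adjusted p = 0.095 over 10 comparisons). For miR-143-3p the difference at D28 was -0.05 (exact p = 0.97), and -0.67 without EC D28 replicate 2. In CPM, miR-126a-3p itself was at 0.769 of D0 in ECs at D28. The other arm of this marker, miR-126a-5p, fell further, from 4812 to 1888 CPM (0.392 of D0). Ratios of the members to miR-126a-5p were not tested.

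The ratio of the 5p to the 3p arm was tested with limma over all hairpins with enough counts. In ECs, miR-143-5p was 0.325% of miR-143-3p at D0 and 0.138% at D28 (0.0868% without EC D28 replicate 1), on log2 values of -7.92, -8.44, -8.54 and -8.25 against -8.40, -10.98, -12.08 and -9.03 in the 4 libraries. The D28 libraries spread widely and 1 of them overlapped with D0. The difference was -1.84 (SE 0.506, limma adjusted p = 0.0070), beside 38.5% of 104 hairpins called at D28, and it stayed between -2.41 and -1.19 when each library was left out in turn. For miR-145a, whose 5p arm was 7.03 times the 3p arm at D0 and 5.49 times at D28, the difference was -0.78 (adjusted p = 0.24).

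In CMs the share of miR-143-5p rose from 0.0769% of miR-143-3p at D0 to 1.21% at D7. The D0 mean rested on CM D0 replicate 1 at 0.219%, and without it the mean was 0.0296% and the log2 difference of D7 5.38. The log2 differences from D1 to D28 were 2.57, 3.68, 4.64, 4.51 and 4.36 (limma adjusted p = 0.016 at D1, 5.8e-05 at D7), and from D3 on no library overlapped with D0. These are beside 42.4%, 68.7%, 70.7%, 72.7% and 67.7% of 99 hairpins called. At D1 the libraries fell into a pair near D0 (-10.62 and -10.07) and a pair near the later days (-6.37 and -6.82), and the call of D1 was lost without any 1 of CM D0 replicates 3 and 4 and CM D1 replicates 3 and 4. The 5p to 3p ratio of miR-145a in CMs was 5.13 at D0 and 3.10 at D28, a difference of -0.66 (adjusted p = 0.040) that was lost without any 1 of CM D0 replicates 1 and 2 and CM D28 replicates 1, 2 and 4.

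In FBs the 5p to 3p ratio of miR-143 was higher at D3 by 0.91 (limma adjusted p = 0.023, beside 25.9% of 147 hairpins), which was lost without any 1 of FB D0 replicates 1 and 2 and FB D3 replicates 1 to 3. That of miR-145a changed over all days (adjusted p = 0.015, beside 49.7%), with means of 2.49 at D0, 4.64 at D1, 3.98 at D3 and 4.05 at D14, and no single day passed. In HCs neither ratio passed over all days (adjusted p = 0.68 for miR-143 and 0.79 for miR-145a, beside 15.8%), and the 5p arm of miR-143 stayed at 0.310% to 0.447% of the 3p arm. Reads of different arms also ligate with different efficiency, so these ratios are compared between libraries and are not numbers of molecules.

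**Figure D5:**
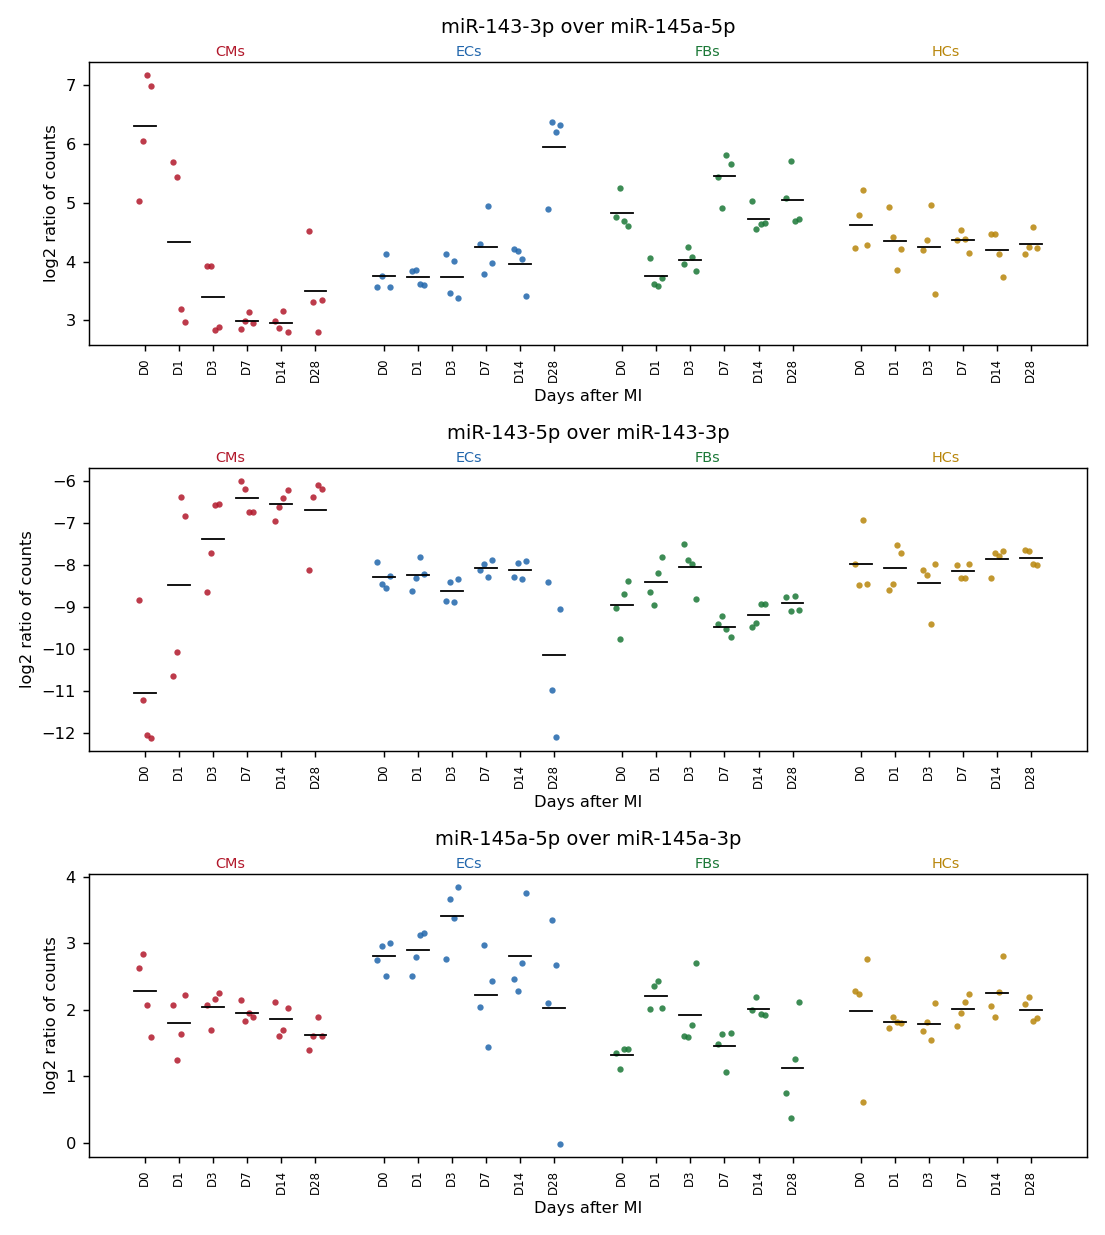
log2 ratios of counts in the 96 libraries for miR-143-3p over miR-145a-5p, miR-143-5p over miR-143-3p and miR-145a-5p over miR-145a-3p, by cell type and day after MI, with bars at the means of 4 libraries. The first rises in ECs at D28 and falls in CMs after D0, the second rises in CMs from a mean of -11.04 to -6.40 at D7, and HCs move least.

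The hairpin tables, which hold alignments to the precursor, were examined for the same cluster. Alignments to mir-145a were fewer than the mature reads of its arms in every group, at 0.144 ± 0.006 per mature read in ECs at D0 (SD, n = 4). Those to mir-143 were at 0.487 per mature read in FBs at D7. Reads counted for an arm are therefore not all included, and the hairpin counts are not totals of the precursor or the cluster. Alignments to mir-143 averaged 143824 per 1000000 hairpin alignments in ECs at D0, against 68326 in FBs, 47590 in HCs and 42069 in CMs. In HCs they fell to 0.150 of D0 at D3 and were at 0.356 at D28, and those to mir-145a fell to 0.122 and were at 0.403. In ECs at D28 mir-145a was at 0.495 of D0. mir-143 was at 69701, 256486, 65654 and 55468 per 1000000 there, a mean of 0.778 of D0 that became 0.442 without EC D28 replicate 2, when mir-145a was at 0.526. In CMs mir-143 alignments stayed at 0.806 to 1.03 of D0, although miR-143-3p fell, and their number per mature read of the hairpin rose from 0.625 ± 0.350 at D0 to 2.05 ± 0.297 at D7 (SD, n = 4). Reads aligned to a precursor but to none of its listed arms, and reads aligned more than once, cannot be told apart in these tables.

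Over the 24 group means of log2 CPM (TMM factors of all libraries), 232 miRNAs reached 100 CPM in at least 1 group. miR-143-3p was followed most closely by miR-192-5p (Spearman rho 0.93), miR-30a-3p (0.87), miR-30c-2-3p (0.86), miR-30e-5p (0.84) and miR-126a-3p (0.82). miR-145a-5p was followed by miR-130a-3p (0.93), miR-143-5p (0.93), miR-145a-3p (0.91), miR-30e-5p (0.91) and miR-30a-5p (0.83). The rarer arm of miR-143 thus ranked 2 for likeness to miR-145a-5p, and miR-143-3p ranked 13 (0.79). These correlations describe 24 means that share libraries and scaling and carry no p.

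Of 15 miRNAs known to act in smooth muscle cells, 1 was called higher and 4 lower in ECs at D28, beside 26.8% and 20.2% of all miRNAs. Their median log2 fold change was -0.07 and that of all miRNAs 0.07. miR-10a-5p rose by 0.68 (edgeR adjusted p = 0.047), from 14391 to 21470 CPM on average. Those lower were miR-133a-3p (-1.92, adjusted p = 0.00058), miR-26a-5p (-0.82, adjusted p = 0.0024), miR-155-5p (-0.90, adjusted p = 0.0038) and miR-1a-3p (-0.92, adjusted p = 0.0498). miR-1a-3p and miR-133a-3p are also the main miRNAs of cardiomyocytes and stand in that marker list. miR-21a-5p, miR-221-3p and miR-222-3p, which favour growth of smooth muscle cells, had differences of 0.66, 0.03 and 0.13 that did not pass. In HCs at D3, when miR-143-3p, miR-143-5p and miR-145a-5p had their lowest means, 4 of the 15 were higher and 8 lower, beside 30.9% and 28.1%.

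miR-145b, annotated elsewhere on chromosome 18 (69022199 to 69022273), was near absent. It was listed at 0 in 47 of 96 libraries and had at most 14 counts, 125 in all against 1453808 for miR-145a-5p. Where it was at 0, the depth allows a level of up to 0.109 to 164 CPM (3 counts, counting error only), the highest limit in HC D0 replicate 3. No member had counts identical to those of another listed miRNA in all libraries.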

How the data were processed

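Per the labels and the study's methods, adaptors were trimmed, reads under 18 nt removed and the rest aligned by an nf-core pipeline for small RNA to miRBase 21 mature and hairpin sequences. The submitters' processing notes name Trim Galore, SAMtools and Bowtie2, and mm10. The deposited values are raw counts per mature miRNA or hairpin, in 192 tables. How reads with several matches were counted is not given in the sources used here. The line of unaligned reads, 25.6% to 83.0% of a mature table, was left out. Conditions came from the sample labels. The members and lists were chosen with earlier results of these data known.

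Counts were tested with edgeR 4.0.16 in R 4.3.3 (TMM factors, filterByExpr, quasi-likelihood test, Benjamini-Hochberg adjustment over all miRNAs of a contrast, threshold 0.05), in 1 fit of 24 libraries per cell type and 1 of all 96. For the ratio of arms, limma 3.58.1 was fitted to log2 values with 0.5 added to each count, and a hairpin entered where the average of each arm reached 10 counts. Ratios of single miRNAs used exact permutation tests, and correlations across ECs used 100000 permutations within days. The scripts were tested on simulated data. Named miRNAs were the members, miR-145b, marker miRNAs, the 5 miRNAs most like each abundant arm and at most 5 smooth muscle miRNAs called in ECs at D28. DESeq2 1.42.0, other scaling, no filter, other pseudocounts, a replicate block and omitted libraries were alternatives. Total RNA-seq data were not analysed here. The study calls the pools biological replicates in one place and technical ones in another, so p-values measure the spread between pools. Counting error alone limits rare arms, down to 3 counts in HC D0 replicate 3.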

Additional observations from a re-analysis of the deposited data

Results flagged for a closer look

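In 7 of 96 sets (4 arms in each of 24 groups of 4 libraries), where chance alone gives about 1 in 20, 1 library stood far from the other 3 in CPM. For miR-143-3p these were CM D28 replicate 1 (19698 CPM, the others 13105 to 14135), EC D0 replicate 4 (44451, the others 57172 to 58648) and FB D14 replicate 2 (20902, the others 24408 to 24868). For miR-143-5p they were CM D0 replicate 1 (48.2 CPM, the others 7.73 to 10.9) and HC D0 replicate 3 (164 CPM from 3 counts, the others 75.8 to 88.0). For miR-145a-5p they were CM D7 replicate 1 (2024 CPM, the others 1839 to 1867) and FB D0 replicate 2 (694 CPM, the others 971 to 1006). EC D28 replicate 2, with 100885 CPM of miR-143-3p, did not reach the criterion because the other 3 libraries of its group also spread widely.

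The change in ECs differed from the average change of CMs, FBs and HCs by the edgeR contrast itself at D28 for miR-145a-5p (-1.95), miR-145a-3p (-1.55), miR-143-5p (-1.98) and miR-143-3p (1.29, but 0.33 without EC D28 replicate 2), and at D3 for miR-143-3p (1.45). At D3 the change of miR-143-3p in ECs itself was -0.23, beside -2.72 in CMs, -0.69 in FBs and -2.62 in HCs. The size of the fall in CMs depended on the scaling, and the D3 contrast is given with TMM factors only. With TMM factors every library moved in opposite directions against D0 in 2 further cases, whose difference was not tested as such. miR-145a-5p at D1 lay above D0 in all FB libraries (log2 difference 0.54) and below it in all EC libraries (-0.43). miR-145a-3p at D28 lay above D0 in all CM libraries (0.74) and below it in all EC and HC libraries (-1.62 and -1.47).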

How the results depend on the processing

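For results that answer a comparison, 265 values under alternatives kept their direction and side of the threshold, 13 came to pass it, 2 no longer passed and 8 reversed. miR-143-3p in ECs at D28 turned sign with DESeq2 (0.037), without the libraries absent from the study's plot of samples (0.073) and without those farthest from their group, EC D28 replicate 3 among them (0.049). It came to pass at D7 with no filter (-0.78) or the compared days alone (-0.81), and at D14 with the compared days alone (-0.65). miR-145a-5p in ECs at D14 came to pass with DESeq2 (-0.83), no filter (-0.84), without the absent or the farthest libraries (-0.77 in both) and with the compared days alone (-0.87). Between ECs and CMs, miR-143-3p was 1.33 and miR-145a-5p 0.96 with library size alone, miR-143-3p was -0.32 and passed with no filter, and miR-143-5p (0.33) and miR-145a-3p (0.22) turned sign with library size alone. miR-145a-5p in CMs turned sign with library size alone (2.26 at D7, 2.29 at D14), no filter (0.34 and 0.017), DESeq2 (0.10 at D7) and the compared days alone (0.13 at D7, -0.069 at D28). With library size alone the correlations of miR-145a-5p across ECs turned to 0.15 with miR-126a-3p and -0.15 with the cardiomyocyte markers. The cause of these differences was not tested.

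Leaving out each library in turn gave -1.02 to 0.073 for miR-143-3p in ECs at D28 and -0.88 to -0.69 for miR-145a-5p in ECs at D14. Leaving out 1 replicate number from every group in turn, or EC D28 replicate 2 alone (chosen after seeing the data), gave -0.33 to 0.047 for miR-143-3p in ECs minus CMs and 0.27 to 1.75 for its D28 contrast between cell types. For miR-145a-5p in CMs, leaving out single libraries gave -0.054 to 0.43 at D1, -0.14 to 0.34 at D3, -0.21 to 0.28 at D7 and -0.20 to 0.28 at D28. Of single results, 72 values were no longer past the threshold under an alternative and 24 reversed.

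Libraries of different cell types on a day share mice, but the labels do not tie equal replicate numbers to the same mice. Of pairs of libraries with the same number, 9, 5, 9 and 6 of 60 in CMs, ECs, FBs and HCs had deviations correlated above 0.1, and 17 of 144 between cell types. Such pairs with unequal numbers were not counted. Between cell types the median correlation was 0.019 for equal and -0.0068 for unequal numbers, and these values do not settle the pairing. The replicate block ended the calls of miR-143-5p in FBs at D7 (-0.53, edgeR adjusted p = 0.056) and of the arm ratio of miR-145a in CMs at D28 (-0.66, limma adjusted p = 0.050). No other call that was checked ended. The check covered changes and arm ratios by day within cell types, ECs against each other cell type and the D28 contrast. Between cell types, day and replicate number together were the block. The D3 contrast, pairs of cell types without ECs and arm ratios over all days were not in this check. Depth limits miR-143-5p most, with 5 counts in EC D28 replicate 3 and 3 in HC D0 replicate 3.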
